A study of Mus musculus with 12 samples.

Results

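DNA replication and nucleotide supply genes were followed in liver RNA of the NICD1/Akt mouse model of cholangiocarcinoma (CCA), a cancer of the bile duct lineage. The set holds 48 genes taken by symbol from the replication machinery, by a rule that uses no measured value, out of 21807 gene IDs in the deposited tables, 21573 of which have a symbol. It was read in 10 groups by role: the MCM helicase, Cdc45 and GINS, the origin recognition complex, licensing factors, the sliding clamp and its loader, polymerases and primase, the single-strand binding protein, flap removal and ligation, nucleotide supply, and chromatin assembly.

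Before a cell copies its DNA, the origin recognition complex marks start points, and Cdc6 and Cdt1 load the ring of Mcm2 to Mcm7 on them, which geminin (Gmnn) prevents from happening again in the same cycle. Cdc45 and the GINS complex then turn the ring into an active helicase, primase and the polymerases synthesise the new strands on the clamp Pcna, and ribonucleotide reductase, thymidylate synthase and thymidine kinase supply the nucleotides. Most hepatocytes of an adult liver are quiescent, and RNA of many of these genes is known to be low outside the cell cycle.

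Each of 4 groups had 3 libraries of C57BL/6J mice. NICD1/Akt livers carried plasmids for the Notch1 intracellular domain (NICD1, 10 µg per mouse) and myristoylated AKT (myr-AKT, 10 µg) with 0.8 µg of the Sleeping Beauty transposase plasmid, which inserts transgenes into the genome, and were taken 3 weeks (libraries 1, 2 and 3) and 2 weeks (libraries 33, 34 and 35) after hydrodynamic tail vein injection (HTVi). Controls were livers of uninjected WT mice, labelled with the same times of 3 weeks (libraries 10, 11 and 12) and 2 weeks (libraries 30, 31 and 32). The injection and the transposase plasmid thus cannot be told apart from NICD1 and myr-AKT. The effect of NICD1/Akt below stands for the whole difference between NICD1/Akt livers and controls of a stage. The methods give the injected mice as males of 5 weeks of age. The labels name the NICD1/Akt tissue as CCA tumor, whereas the paper speaks of both mouse livers and tumors. Whether tumors were excised or liver with tumors was taken is thus not settled, and HTVi delivers DNA to part of the hepatocytes. In such bulk RNA, fewer cells of a type and less RNA per cell cannot be told apart. Whether the 3 libraries of each group stem from different mice is not given in the sources used here, so the p-values reflect spread among libraries, which may be technical.

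Total counts were 13136892 to 19594839 per library, and levels are given as CPM, counts scaled to the size of the library and not to the length of the gene. Notch1 and Akt1, whose RNA can include transgene reads, were higher in NICD1/Akt livers at 3 weeks than in controls in every library (324 to 412 CPM of Notch1 against 42.1 to 45.5 CPM). The library labelled control 32 stood apart from the other controls of its stage, with 381 CPM of Akt1 and 1875 CPM of Spp1, a biliary gene, against 90.1 to 90.9 CPM and 53.7 to 56.6 CPM in libraries 30 and 31, and results at 2 weeks are given with and without it. NICD1/Akt libraries 33, 34 and 35 ranged between 285 and 927 CPM of Akt1, between 1054 and 4256 CPM of Spp1 and between 101 and 202 CPM of Notch1, of which library 32 had 106 CPM, so its levels of all 3 genes fell inside those ranges. Ddx3y, on the Y chromosome, ranged between 0 and 0.398 CPM in libraries 30, 31, 33, 34 and 35, at 57.2 CPM in library 32 and at 52.2 to 126 CPM in all libraries of 3 weeks, so stage and sex cannot be told apart in comparisons between stages. The labelled tissue held its markers: at 3 weeks, 6 hepatocyte markers summed to 24136 to 35958 CPM in NICD1/Akt livers, against 101354 to 105092 CPM in controls, and 6 biliary markers to 3372 to 3960 CPM, against 73.3 to 116 CPM. At 3 weeks, 5 stellate cell and fibroblast markers summed to 1598 to 2286 CPM in NICD1/Akt livers, against 163 to 219 CPM in controls, and 5 macrophage markers to 278 to 418 CPM, against 99.8 to 138 CPM. Of the stellate cell and fibroblast markers 4 were higher, and Dcn was not (log2 fold change -0.10). Sums of 7 lymphocyte markers (4.79 to 5.87 CPM against 5.33 to 7.14 CPM) overlapped, those of 4 endothelial markers ran from 165 to 221 CPM against 215 to 249 CPM, and those of 5 erythroid markers from 48.6 to 87.4 CPM against 188 to 208 CPM. The endothelial markers did not share a direction, with log2 fold changes of 0.33 for Cdh5 and 0.15 for Pecam1, and of -0.52 for Stab2 and -0.44 for Kdr. In each group at 3 weeks, 1 erythroid marker was at 0 and none of the other markers was. The part that this makeup of cells has in the values below was not tested.

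At 3 weeks, 43 of the 48 genes were higher and 2 lower in NICD1/Akt livers than in controls at an adjusted p under 0.05 (edgeR quasi-likelihood test, as for every adjusted p below). Of all 13408 genes tested, 38.9% were higher and 33.1% lower. The median log2 fold change was 1.86 over the 48 genes and 0.06 over all genes. Of the 45 genes past the threshold, 33 rose at least 2-fold and 15 at least 8-fold. The 8-fold class held Gmnn, Mcm5, Mcm6, Cdc6 and Lig1, while Mcm10 and Orc4 were the genes that fell and Gins4, Orc5 and Rrm2 missed the threshold. The groups did not overlap for 42 genes that were higher and 2 that were lower, where 37.6% and 40.3% of all genes did the same. Set against all 6 controls, those of 2 weeks included, 34 of the 45 kept their call, and Mcm10, Gins1, Orc3, Orc4, Orc6, Rfc1, Pola2, Pold2, Rpa1, Rpa3 and Tk1 lost it. A total of 38 genes were at or above the level of the filter on low counts, 0.648 CPM, in all 3 controls (33 of these higher and 2 lower), and 10 passed it through NICD1/Akt livers only (Mcm6, Cdc45, Gins2, Gins3, Orc1, Cdc6, Cdt1, Rfc4, Pole2 and Chaf1b). A rise was thus needed for those 10 to be tested, which bears on the counts and medians by role below.

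**Figure D1:**
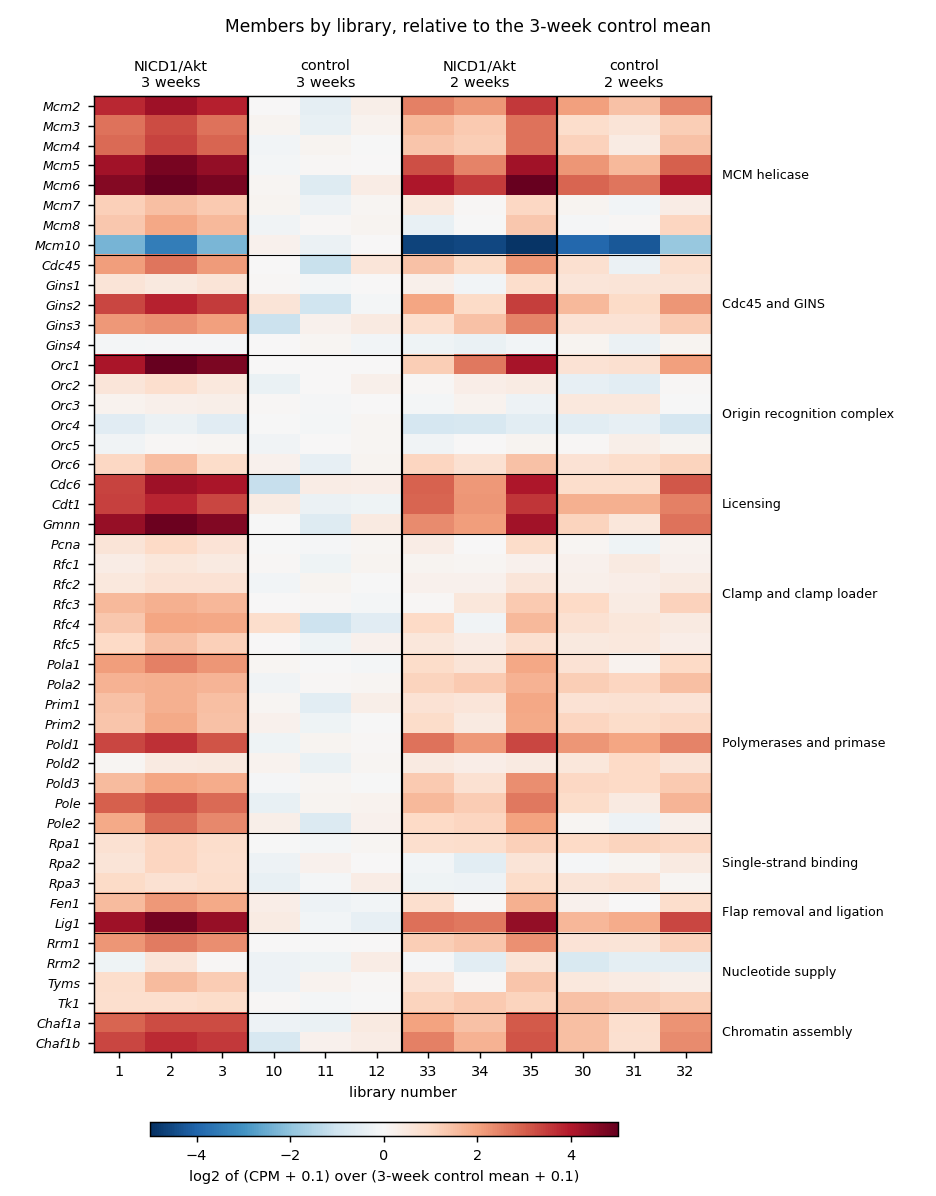
Level of each of the 48 genes (rows, by role) in each of the 12 libraries (columns, by library number), as the log2 of CPM plus 0.1 over the mean of the 3-week controls plus 0.1. NICD1/Akt livers at 3 weeks are red in most rows and blue for Mcm10, and library 35 is the reddest of the 2-week libraries in most rows (highest of 6 in 40 of 48 genes, counted for the set only).

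The helicase genes rose, apart from Mcm10. In this group 7 of 8 genes were higher and 1 lower, with a median log2 fold change of 3.14. Summed over Mcm2 to Mcm7, the ring that unwinds DNA, RNA reached 187, 266 and 203 CPM in NICD1/Akt libraries 1, 2 and 3, against 32.1, 25.5 and 32.7 CPM in control libraries 10, 11 and 12, the order of libraries used for all values of 3 weeks. Mcm5 (ENSMUSG00000005410.7), a ring subunit, had 30.5, 44.6 and 35.3 CPM in NICD1/Akt livers, against 1.47, 1.65 and 1.58 CPM in controls. Its lowest NICD1/Akt value was far above its highest control value, and the log2 fold change reached 4.67 (with a standard error, SE, of 0.20, adjusted p = 5.57e-07). Mcm2, another ring subunit, stood at 27.9, 38.0 and 29.7 CPM in NICD1/Akt livers and at 1.98, 1.39 and 2.42 CPM in controls (log2 fold change 4.16, SE 0.21, adjusted p = 1.25e-06). Mcm6 had the largest fold of the ring, with 32.8, 52.7 and 36.9 CPM in NICD1/Akt livers against 1.38, 0.783 and 1.67 CPM in controls (log2 fold change 5.10, SE 0.28, adjusted p = 1.85e-06). Mcm3, with 28.9, 42.2 and 29.5 CPM against 4.83, 3.31 and 4.92 CPM in controls, and Mcm4, with 27.2, 39.4 and 28.4 CPM against 3.36, 4.09 and 3.67 CPM, rose by log2 fold changes of 3.06 and 3.21. Mcm7 moved least within the ring (log2 fold change 1.46), with 39.2 to 49.0 CPM in NICD1/Akt livers and 14.3 to 19.1 CPM in controls. Mcm8, which works with Mcm9 in repair of broken forks, rose by 1.82.

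Mcm10 (ENSMUSG00000026669.15) went the other way. This gene encodes a factor that is not part of the ring and helps to activate it. At 3 weeks it had 71.1, 32.3 and 73.0 CPM in NICD1/Akt livers, against 418, 288 and 361 CPM in controls, so every NICD1/Akt value lay below every control value (log2 fold change -2.48, SE 0.30, adjusted p = 0.000134). Its level differed widely between the controls of the stages: at 2 weeks its CPM were 14.3, 15.0 and 11.9 in NICD1/Akt libraries 33, 34 and 35, and at 23.6, 19.0 and 95.6 CPM in control libraries 30, 31 and 32. The libraries with Ddx3y RNA (1, 2, 3, 10, 11, 12 and 32) had 32.3 to 418 CPM of Mcm10 and the libraries at or near 0 for Ddx3y had 11.9 to 23.6 CPM, an association whose part in the fall was not tested. Against all 6 controls its call was lost (log2 fold change -1.77, adjusted p = 0.168). Set against control libraries 30 and 31 alone, a comparison across stages chosen after seeing the data, NICD1/Akt livers at 3 weeks had more Mcm10 RNA (log2 fold change 1.49, SE 0.34, adjusted p = 0.0062), while the comparison left 37 of the 48 genes higher and 1, Tk1, lower (33.4% and 29.9% of all genes).

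Of the partners that activate the ring, 4 of 5 rose and none fell, with a median log2 fold change of 2.44, the value of Gins3. Cdc45, Gins2 and Gins3 passed the filter on low counts through NICD1/Akt livers only, so a rise was needed for them to be tested. Gins2, a GINS subunit, had 7.31, 10.3 and 8.20 CPM in NICD1/Akt livers against 1.04, 0.261 and 0.583 CPM in controls (log2 fold change 3.89, SE 0.35, adjusted p = 2.63e-05). Gins3 had 3.33, 3.61 and 2.98 CPM against 0.259, 0.783 and 0.917 CPM in controls (log2 fold change 2.44, SE 0.36, adjusted p = 0.00036). Cdc45 rose by 2.51 and Gins1 by 0.73, although the call of Gins1 was lost in the fit of all 12 libraries, against all 6 controls and against libraries 30 and 31. Gins4, from the same complex, gave no call (11.8 to 12.2 CPM in NICD1/Akt livers, 11.4 to 13.7 CPM in controls, log2 fold change 0.05, SE 0.12). The 4 GINS subunits form 1 complex, and their RNA thus covered log2 fold changes between 0.05 and 3.89.

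The origin recognition complex was the least uniform group, with 4 of 6 genes higher, 1 lower and a median log2 fold change of 0.58. Orc1 (ENSMUSG00000028587.19), the largest subunit, which binds ATP, had 1.59, 3.09 and 2.52 CPM in NICD1/Akt livers and 0 CPM in all 3 controls. These are 180 counts against 0, and with a floor of 3 counts over the control group the level was at least 28.1-fold higher (adjusted p = 0.000289). Orc6 had 6.10, 8.76 and 5.64 CPM against 3.36, 2.18 and 3.17 CPM in controls (log2 fold change 1.35, SE 0.25, adjusted p = 0.00142), and lost its call against all 6 controls and against libraries 30 and 31. Orc2, at 11.4, 13.4 and 10.8 CPM in NICD1/Akt livers and 5.95, 7.57 and 8.92 CPM in controls, rose by 0.79 (SE 0.18, adjusted p = 0.00359). Orc3 rose by 0.36, with 16.9, 17.6 and 18 CPM against 15.2, 14.0 and 15.1 CPM, and lost its call in the fit of all 12 libraries and with both other sets of controls. Orc4 fell: 17.4, 21.3 and 17.7 CPM in NICD1/Akt livers stood below 26.0, 24.6 and 27.9 CPM in controls (log2 fold change -0.36, SE 0.11, adjusted p = 0.0197). That call was lost in 5 alternatives and the sign turned in 2, library size scaling (0.35) and libraries 30 and 31 as controls (0.02). Orc5 gave no call, with 12.4 to 15.0 CPM against 12.6 to 15.3 CPM (log2 fold change 0.11, SE 0.13).

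All 3 licensing genes rose, and this group had the highest median log2 fold change, 4.41. Gmnn, the inhibitor of Cdt1, had 42.5, 61.7 and 51.7 CPM in NICD1/Akt livers against 1.98, 1.22 and 2.75 CPM in controls (log2 fold change 4.82, SE 0.25, adjusted p = 1.33e-06). Its target Cdt1 had 10.5, 13.7 and 9.83 CPM against 1.21, 0.696 and 0.750 CPM in controls (log2 fold change 3.79, SE 0.26, adjusted p = 5.57e-06). Cdc6, the other loader, rose by 4.41 (SE 0.45), from 0.0863 to 0.435 CPM in controls, and its value is the median of the group. Cdc6 and Cdt1 passed the filter on low counts through NICD1/Akt livers only. A rise was thus needed for them to be tested, which bears on the rank of this group. Loaders and inhibitor thus stood far apart from the controls in the same direction, as the panels of single genes show for Cdt1 and Gmnn.

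**Figure D2:**
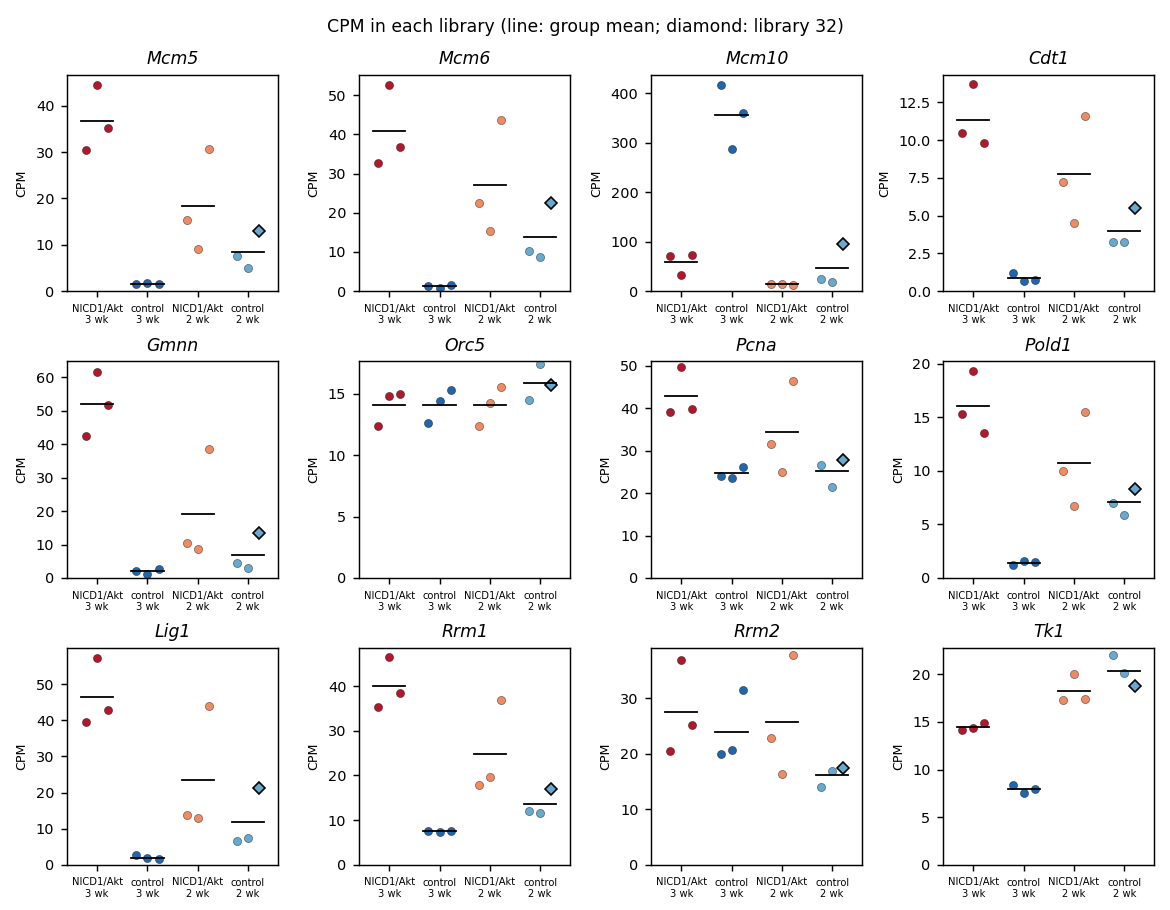
CPM (linear axes from 0) of 12 genes in each library, in the 4 groups, with group means as lines and the library labelled control 32 as a diamond. NICD1/Akt livers at 3 weeks lie above their controls without overlap for Mcm5, Mcm6, Cdt1, Gmnn, Pcna, Pold1, Lig1, Rrm1 and Tk1, below them for Mcm10, and among them for Orc5 and Rrm2.

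The clamp and its loader rose as a whole but by little. All 6 genes were higher, with a median log2 fold change of 1.14. Pcna, the ring that holds polymerases on DNA, had 39.0, 49.6 and 39.8 CPM in NICD1/Akt livers against 24.1, 23.6 and 26.2 CPM in controls (log2 fold change 0.92, SE 0.12, adjusted p = 0.000162). Mouse Pcna has processed pseudogenes, as has Tyms, and reads that they share could be split or lost in counting, so both levels are uncertain. Among the loader subunits, Rfc3 had 9.62, 10.8 and 9.88 CPM against 3.11, 3.22 and 2.83 CPM in controls (log2 fold change 1.84, SE 0.15, adjusted p = 1.65e-05), and Rfc5 had 13.1, 17.9 and 14.9 CPM against 6.47, 5.48 and 7.42 CPM (log2 fold change 1.36, SE 0.17, adjusted p = 0.000162). Rfc4 rose by 1.96, Rfc2 by 0.79 (25.5, 29.2 and 29.5 CPM against 16.2, 19.2 and 17.6 CPM) and Rfc1, the large subunit, by 0.58 (28.5, 33 and 30.6 CPM against 23.5, 19.0 and 24.4 CPM). The call of Rfc1 was lost against all 6 controls and against libraries 30 and 31.

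Every one of the 9 polymerase and primase genes was higher, with a median log2 fold change of 1.93 and a range of 0.46 to 3.61. Pold1, the catalytic subunit of the lagging strand polymerase, had 15.3, 19.3 and 13.5 CPM in NICD1/Akt livers against 1.21, 1.57 and 1.5 CPM in controls (log2 fold change 3.61, SE 0.21, adjusted p = 2.66e-06). Pole, the catalytic subunit of the leading strand polymerase, had 15.7, 19.2 and 14.2 CPM against 1.47, 2.09 and 2.17 CPM in controls (log2 fold change 3.21, SE 0.20, adjusted p = 3.66e-06). Pola1, which extends the primers, had 19.0, 26.0 and 20.9 CPM against 4.74, 4.35 and 4.17 CPM in controls (log2 fold change 2.43, SE 0.16, adjusted p = 4.58e-06). Its partner Pola2 rose by 1.88 (12.6, 12.9 and 12.4 CPM against 3.3, 3.92 and 4.0 CPM) and the primase subunit Prim2 by 1.77 (6.25, 8.91 and 6.62 CPM against 2.67, 2.00 and 2.25 CPM), and the catalytic primase subunit Prim1 rose by 1.74. The call of Pola2 was lost against all 6 controls. The catalytic subunits Pold1 and Pole had larger fold changes than their accessory subunits Pold3 (1.93), Pole2 (2.68) and Pold2 (0.46). Pold2 lost its call in 5 alternatives and turned sign in 2.

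Genes that handle single strands and Okazaki fragments rose too. The 3 subunits of replication protein A, which coats single-stranded DNA, rose by nearly the same amount, with log2 fold changes from 0.99 to 1.04. Rpa1 had 37.5, 45.8 and 40.6 CPM in NICD1/Akt livers against 21.4, 20.7 and 23.5 CPM in controls (log2 fold change 1.04, SE 0.11, adjusted p = 5.13e-05), and Rpa2 had 9.70, 13.2 and 11.1 CPM against 5.09, 7.23 and 6.17 CPM (log2 fold change 1.00, SE 0.18, adjusted p = 0.00122). Against libraries 30 and 31 Rpa1 and Rpa3 lost their calls and Rpa1 turned sign (-0.11), and against all 6 controls Rpa1 (0.30, adjusted p = 0.437) and Rpa3 (0.58, adjusted p = 0.0901) lost theirs too. Lig1, the ligase that seals Okazaki fragments, had 39.5, 57.1 and 42.7 CPM in NICD1/Akt livers against 2.67, 1.83 and 1.5 CPM in controls (log2 fold change 4.65, SE 0.23, adjusted p = 1.07e-06). Fen1, the nuclease that trims their flaps, had 14.5, 21.6 and 18.1 CPM against 5.95, 4.0 and 4.33 CPM (log2 fold change 2.04, SE 0.21, adjusted p = 4.81e-05). Both subunits of chromatin assembly factor 1, which puts histones on new DNA, rose: Chaf1a to 14.1, 17.9 and 18.1 CPM, against 1.47, 1.39 and 2.50 CPM in controls (log2 fold change 3.33, SE 0.23, adjusted p = 6.03e-06), and Chaf1b to 9.13, 12.1 and 10.6 CPM, against 0.431, 0.958 and 1.08 CPM (log2 fold change 3.79, SE 0.28, adjusted p = 8.48e-06).

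Nucleotide supply was split within ribonucleotide reductase. Its large subunit Rrm1 had 35.4, 46.5 and 38.4 CPM in NICD1/Akt livers against 7.59, 7.40 and 7.50 CPM in controls (log2 fold change 2.54, SE 0.13, adjusted p = 1.33e-06). Its small subunit Rrm2 gave no call, with 20.5 to 36.8 CPM against 20 to 31.4 CPM (log2 fold change 0.31, SE 0.25). Tyms, which makes thymidylate, had 9.81, 16.2 and 13.1 CPM against 4.40, 6.01 and 5.58 CPM (log2 fold change 1.41, SE 0.22, adjusted p = 0.0005). Tk1, the salvage kinase for thymidine, had 14.1, 14.4 and 14.9 CPM against 8.37, 7.49 and 7.92 CPM in controls (log2 fold change 0.98, SE 0.12, adjusted p = 0.000106). Against control libraries 30 and 31, Rrm2 passed the threshold (log2 fold change 0.85, adjusted p = 0.0172) and Tk1 fell (-0.52, adjusted p = 0.00415). Against all 6 controls Tk1 gave no call (0.03, adjusted p = 0.952).

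**Figure D3:**
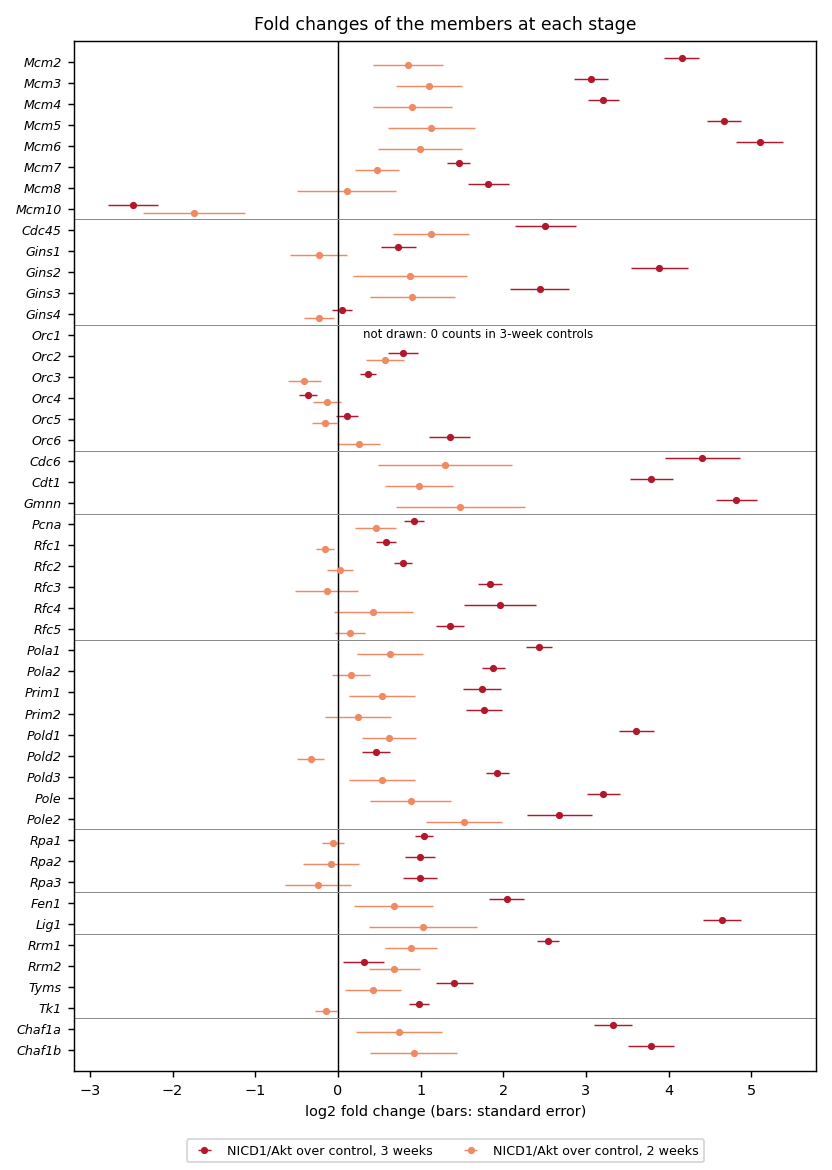
Log2 fold change of NICD1/Akt livers over controls (points, with the standard error as bars) for each gene at 3 weeks and at 2 weeks, in the order of roles; Orc1 is not drawn. At 3 weeks 43 of 48 genes passed the threshold as higher, and at 2 weeks no gene passed an adjusted p under 0.05.

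Promoter sequences were read to show what the genes share that their choice did not use. E2F factors, known regulators of genes of the G1 to S transition, bind short motifs of the kind searched here. In RefSeq windows of GRCm38.p6, from 250 bases before to 50 after a start site, 40 of the 48 genes had an entry; Mcm4, Gins1, Gins2, Gins4, Gmnn, Rfc2, Prim2 and Pole had none. The motif was any of TTTCCCGC, TTTCGCGC, TTTGCCGC and TTTGGCGC, on either strand, and matches on opposite strands may overlap. It was found in 16 of the 40 genes (40%) and in 2.6% of all 27025 genes of the table. Of the 13 genes with the largest 3-week fold change 9 held it, and of the 13 with the smallest 1 did, Orc3. Of those 9, Orc1, Mcm6, Cdc6, Cdt1 and Pole2 passed the filter on low counts through NICD1/Akt livers alone, so that a rise was needed for them to be tested. With 1 T less (7 letters) the shares were 67.5% of the 40 genes and 10.9% of all genes, with 12 of the 13 genes of largest and 6 of the 13 of smallest fold change. The CCAAT box was in 62.5% against 41.1% (7 and 10 of 13), and the CHR (TTTGAA or TTCGAA) in 17.5% against 21.7% (1 and 1 of 13). These are matches of letters, with no test and no measure of binding. Windows of 4 genes that rose, Mcm6, Mcm5, Cdt1 and Rfc3, and of Mcm10, which fell, and Rrm2, which gave no call, are shown 5′ to 3′ on the strand of the gene, with matches to the 8-letter motif in capitals; Mcm6, Mcm10 and Rfc3 lie on the minus strand.
Mcm6, chr1:128359656-128359955: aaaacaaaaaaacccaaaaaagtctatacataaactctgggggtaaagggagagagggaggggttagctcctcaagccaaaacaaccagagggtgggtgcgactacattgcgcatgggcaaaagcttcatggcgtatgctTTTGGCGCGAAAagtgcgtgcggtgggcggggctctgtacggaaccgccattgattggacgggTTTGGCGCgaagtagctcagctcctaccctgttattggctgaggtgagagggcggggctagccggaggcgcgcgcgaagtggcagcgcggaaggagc
Mcm5, chr8:75109259-75109558: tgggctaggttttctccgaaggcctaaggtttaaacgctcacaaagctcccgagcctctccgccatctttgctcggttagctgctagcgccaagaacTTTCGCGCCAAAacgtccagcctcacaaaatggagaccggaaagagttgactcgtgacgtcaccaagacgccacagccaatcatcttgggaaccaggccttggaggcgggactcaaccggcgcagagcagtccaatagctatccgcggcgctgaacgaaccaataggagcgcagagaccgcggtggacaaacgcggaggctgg
Cdt1, chr8:122567765-122568064: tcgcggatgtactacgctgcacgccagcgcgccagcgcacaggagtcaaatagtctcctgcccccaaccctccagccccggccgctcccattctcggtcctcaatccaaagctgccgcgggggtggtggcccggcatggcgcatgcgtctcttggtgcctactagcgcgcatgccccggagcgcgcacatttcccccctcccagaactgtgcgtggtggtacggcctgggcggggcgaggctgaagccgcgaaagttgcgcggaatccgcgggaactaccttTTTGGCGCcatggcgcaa
Rfc3, chr5:151651159-151651458: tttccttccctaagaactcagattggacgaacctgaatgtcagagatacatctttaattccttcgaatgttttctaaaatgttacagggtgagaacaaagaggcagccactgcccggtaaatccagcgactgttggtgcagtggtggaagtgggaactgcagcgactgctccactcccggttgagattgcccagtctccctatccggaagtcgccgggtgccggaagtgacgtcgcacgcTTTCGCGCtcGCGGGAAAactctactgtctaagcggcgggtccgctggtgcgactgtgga
Mcm10, chr2:5012742-5013041: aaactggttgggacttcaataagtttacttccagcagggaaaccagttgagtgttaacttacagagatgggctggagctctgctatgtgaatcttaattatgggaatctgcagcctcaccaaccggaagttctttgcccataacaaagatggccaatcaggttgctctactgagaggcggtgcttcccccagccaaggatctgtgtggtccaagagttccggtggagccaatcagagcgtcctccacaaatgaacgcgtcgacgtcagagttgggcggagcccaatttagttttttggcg
Rrm2, chr12:24708004-24708303: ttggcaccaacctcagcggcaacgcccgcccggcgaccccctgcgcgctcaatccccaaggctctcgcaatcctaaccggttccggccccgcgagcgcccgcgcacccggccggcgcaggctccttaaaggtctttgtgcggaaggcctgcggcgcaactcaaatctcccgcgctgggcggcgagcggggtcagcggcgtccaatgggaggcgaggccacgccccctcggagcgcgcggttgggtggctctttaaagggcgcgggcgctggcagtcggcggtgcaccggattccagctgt

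The windows of Mcm6 and Mcm5 each held a pair of matches that overlap on opposite strands, and Mcm6 had a further match nearer the start site. The match of Cdt1 lay after the start site, and the 2 of Rfc3 on either side of it. No match of 8 letters stood in the windows of Mcm10 and Rrm2. The window of Mcm10 ends on the first 7 letters of TTTGGCGC, so a match that crosses its end could not be scored. Rrm2 held a match to the 7-letter form.

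**Figure D4:**
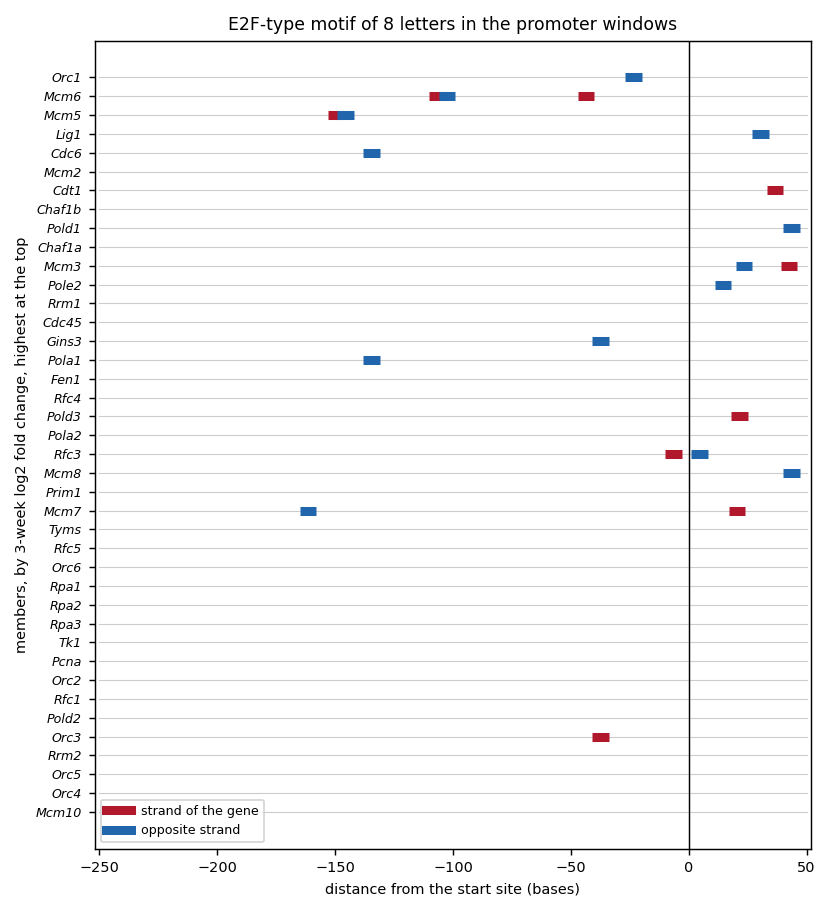
Position of each match to the 8-letter E2F-type motif, in bases from the start site, in the windows of the 40 genes, which run from the highest 3-week log2 fold change at the top to the lowest at the bottom. Matches stand in 9 of the 13 genes at the top and in 1 of the 13 at the bottom.

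At 2 weeks no gene of the set passed an adjusted p under 0.05, with edgeR, its likelihood ratio test, DESeq2 or limma-voom, and 0% of all 13041 genes tested passed with edgeR in either direction. At an unadjusted p under 0.05, 5 of 47 genes tested were higher (Mcm3, Cdc45, Orc2, Pole2 and Rrm1) and 1, Mcm10, was lower, beside 4.90% and 3.69% of all genes. The median log2 fold change was 0.53 over the set and 0.01 over all genes. The same 5 genes, and no others, lay above the controls without overlap, and Mcm10, Rfc1 and Pold2 lay below them without overlap, beside 7.38% and 8.69% of all genes. Orc1 did not pass the filter on low counts, with 0.133, 0.518 and 1.65 CPM in NICD1/Akt libraries 33, 34 and 35 and 0.0666, 0.0721 and 0.309 CPM in control libraries 30, 31 and 32. Rrm1 had 17.9, 19.7 and 36.9 CPM in NICD1/Akt livers against 12.1, 11.7 and 17 CPM in controls (log2 fold change 0.88, SE 0.32, adjusted p = 0.52). Pole2, a polymerase subunit, had 1.33, 1.41 and 2.79 CPM against 0.666, 0.505 and 0.772 CPM, the largest log2 fold change of the set at this stage (1.53, SE 0.46, adjusted p = 0.52). Cdc45 had 4.12, 2.89 and 6.77 CPM against 2.60, 1.15 and 2.63 CPM, and Orc2 7.90, 9.40 and 10.0 CPM against 5.59, 5.12 and 7.88 CPM. Among the other genes tested, log2 fold changes at 2 weeks ran from -0.41 (Orc3) to 1.48 (Gmnn).

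A single NICD1/Akt library and a single control library carried much of the spread at 2 weeks. Library 35 was above both 33 and 34 in 44 of 48 genes, with a median ratio of 1.97 to their mean, against 0.979 over all genes, and reached the range of NICD1/Akt livers of 3 weeks in 34. Libraries 33 and 34 were both above control libraries 30 and 31 in 17 genes. Library 32, labelled control, was above both 30 and 31 in 34 genes, with a median ratio of 1.32 to their mean, against 0.999 over all genes. It was at or above the lowest NICD1/Akt value of its stage in 42, a low bar that a library without any difference would often pass. These counts of order were made for the set only, without a share over all genes. The same libraries stood apart in their markers: biliary markers summed to 4595 CPM in library 35 and to 1139 and 1317 CPM in 33 and 34, against 1982 CPM in library 32 and 68.1 and 66.2 CPM in 30 and 31. Spp1 alone had 4256 CPM in library 35 and 1875 CPM in library 32, so these sums mostly repeat the Spp1 values given before. Stellate cell and fibroblast markers summed to 2052 CPM in library 35 and to 754 and 559 CPM in 33 and 34, against 964 CPM in library 32 and 356 and 336 CPM in 30 and 31. Dcn, of the same list, did not follow, with 165 CPM in library 35 and 203 and 202 CPM in 33 and 34. It had 197 CPM in library 32 and 239 and 237 CPM in 30 and 31. Hepatocyte markers went the other way, with 60050 CPM in library 35 and 137232 and 147355 CPM in 33 and 34, against 94349 CPM in library 32 and 161607 and 165875 CPM in 30 and 31. Sums over all 3 NICD1/Akt livers overlapped those of controls for macrophage (230 to 303 CPM against 214 to 259 CPM), lymphocyte (3.48 to 7.99 CPM against 5.34 to 6.06 CPM), endothelial (195 to 332 CPM against 235 to 305 CPM) and erythroid markers (61.6 to 119 CPM against 67.1 to 187 CPM). The part of these cell types in the values of 2 weeks was not tested. For Lig1, NICD1/Akt libraries 33, 34 and 35 had 13.9, 13 and 43.8 CPM, and control libraries 30, 31 and 32 had 6.52, 7.50 and 21.2 CPM, so library 32 was higher than 33 and 34. Without library 32, 12 genes were higher and 2 lower (Mcm10 and Orc3) at an unadjusted p under 0.05, beside 12.3% and 5.93% of all genes. Those higher were Mcm3, Mcm5, Mcm6, Orc2, Cdc6, Cdt1, Gmnn, Pole, Pole2, Lig1, Rrm1 and Chaf1b, none at an adjusted p under 0.05 (Cdc6, the most changed, log2 fold change 2.57, SE 0.70, adjusted p = 0.202). Without NICD1/Akt library 35, 1 gene passed the unadjusted threshold, without control library 31 also 1 and without control library 30 2, and without NICD1/Akt library 34 14 did. No share over all genes was taken for these last runs, so a shift of all genes cannot be seen from them.

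The effect of NICD1/Akt at 3 weeks was larger than at 2 weeks for 24 of 48 genes and smaller for none at an adjusted p under 0.05 for the difference itself (edgeR; 0 were smaller at an unadjusted p under 0.05, and 0 with DESeq2, the likelihood ratio test or limma-voom), beside 15.0% and 15.8% of all genes. The set's median difference was 1.28 on the log2 scale, and that of all genes -0.02. Without library 32, 20 of these 24 genes passed again, Gins2, Gmnn, Rfc2 and Prim2 did not, and Mcm10 had a lower effect at 3 weeks (difference -1.94, SE 0.42, adjusted p = 0.0136), beside 10.1% and 10.9% of all genes. Over 19 alternatives, 16 of the 24 kept their call in each, and it was lost in 13 for Prim2, 11 for Orc3, 9 for Gins2, 7 each for Gmnn and Rfc2, 2 each for Mcm3 and Pola1 and 1 for Rfc1. Both comparisons rest on separate controls, and the controls differed. Within controls, 17 genes were lower and 2, Mcm10 and Orc4, higher at 3 weeks than at 2 weeks (20.4% lower and 17.4% higher of all genes). Without library 32, 11 were lower and 2 higher, beside 17.5% and 15.2%. Within NICD1/Akt livers, 7 genes were higher at 3 weeks (Mcm2, Mcm4, Mcm7, Mcm10, Rfc3, Rfc5 and Pola1) and 1, Tk1, was lower, beside 11.1% and 17.4% of all genes. Without NICD1/Akt library 35 the count within NICD1/Akt livers was 34, and without library 33 or without library 34 it was 0. The counts without libraries 33, 34 or 35 were made for the set only, without a share over all genes. Stage is confounded with sex-linked RNA here, and the part of either cannot be told apart.

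**Figure D5:**
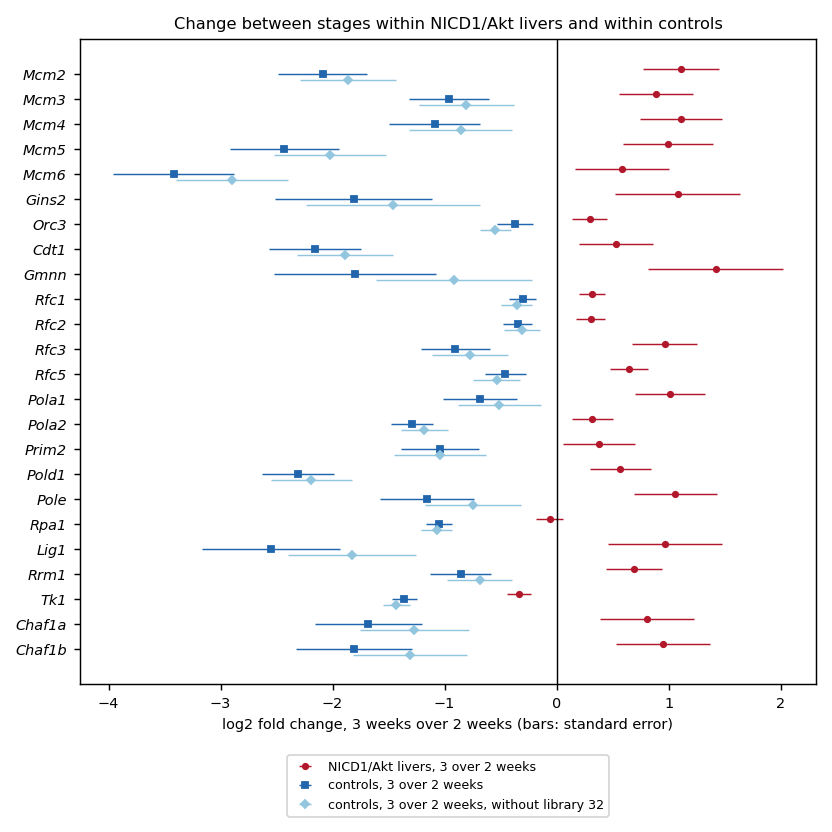
Log2 fold change of 3 weeks over 2 weeks (points, with the standard error as bars) for the 24 genes whose effect differed between stages, within NICD1/Akt livers, within controls, and within controls without the library labelled control 32. Controls lie below 0 for all 24 genes, and NICD1/Akt livers above 0 for all but Rpa1 and Tk1.

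Within controls, 3 of 8 helicase genes were lower at 3 weeks than at 2 weeks and 1, Mcm10, was higher, and 1 of 3 licensing genes was lower, with Cdc6 and Gmnn short of the threshold (adjusted p = 0.058 and 0.0713). Lower too were 5 of 9 polymerase and primase genes, both chromatin assembly genes and 2 of 4 nucleotide supply genes. Control libraries 30 and 31 were both above all 3 controls of 3 weeks in 34 of 48 genes and below them in 4, with a median ratio of 1.66, against 1.05 over all genes. The counts of 34 and 4 were made for the set only, without a share over all genes. Mcm6 showed the largest difference past the threshold, 4.0 (SE 0.68, adjusted p = 0.00395). At 2 weeks it had 22.5, 15.3 and 43.7 CPM in NICD1/Akt livers against 10.2, 8.65 and 22.6 CPM in controls, which lay far above the 0.783 to 1.67 CPM of the 3-week controls given before. Mcm5 had 15.3, 9.10 and 30.6 CPM against 7.59, 4.97 and 13 CPM (difference 3.42), and Mcm2 had 11.5, 9.25 and 23.4 CPM against 8.32, 5.55 and 11 CPM (difference 3.20). Mcm3, with 13.7, 10.9 and 29.4 CPM against 8.19, 6.85 and 10.4 CPM, and Mcm4, with 9.83, 8.88 and 24.9 CPM against 8.25, 4.97 and 10.4 CPM, differed by 1.85 and 2.20. For Mcm2 to Mcm6, every control value of 2 weeks lay above every control value of 3 weeks, and library 35 was the highest of its stage. Cdt1 had 7.24, 4.51 and 11.6 CPM against 3.26, 3.24 and 5.48 CPM (difference 2.7). Gmnn had 10.5, 8.66 and 38.4 CPM against 4.46, 2.96 and 13.5 CPM (difference 3.22), and Gins2 2.72, 1.33 and 7.91 CPM against 2.13, 1.30 and 3.24 CPM (difference 2.89).

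Among genes of DNA synthesis, Lig1 (difference 3.51, SE 0.80, adjusted p = 0.0124) and Pold1 (difference 2.87, SE 0.42, adjusted p = 0.00207) stood out. At 2 weeks Pold1 had 10.0, 6.73 and 15.5 CPM in NICD1/Akt livers against 6.99, 5.91 and 8.34 CPM in controls, all of them above the 1.21 to 1.57 CPM of the 3-week controls. Pole had 6.04, 4.73 and 12.5 CPM against 3.66, 2.67 and 6.49 CPM (difference 2.22), and Pola1 8.50, 6.88 and 17.1 CPM against 7.39, 5.05 and 8.88 CPM (difference 1.69). Pola2, with 8.23, 9.40 and 12.7 CPM against 8.79, 7.93 and 10.7 CPM, and Prim2, with 4.45, 3.18 and 8.93 CPM against 4.93, 4.47 and 4.87 CPM, had overlapping groups at 2 weeks and differences of 1.61 and 1.42. The histone loaders Chaf1a, with 7.44, 5.10 and 15.9 CPM against 5.19, 3.32 and 8.73 CPM, and Chaf1b, with 5.18, 2.96 and 8.14 CPM against 2.53, 1.51 and 4.71 CPM, differed by 2.48 and 2.76. Rrm1 differed by 1.54.

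The remaining differences came from Rpa1, Tk1, Orc3 and clamp loader genes. Rpa1 had 39.4, 39.9 and 50 CPM in NICD1/Akt livers against 43.7, 47.1 and 44.9 CPM in controls (difference 0.99, SE 0.16, adjusted p = 0.0036). Tk1 had 17.3, 20 and 17.4 CPM against 22, 20.1 and 18.8 CPM (difference 1.02, SE 0.15, adjusted p = 0.00229), and its 2-week values lay above all its 3-week values in both groups. The change of Rpa1 within NICD1/Akt livers was -0.06 (SE 0.12), and within controls -1.05 (SE 0.12, adjusted p = 0.000107). The clamp loader genes had overlapping groups at 2 weeks, with the exception of Rfc1: Rfc1 stood at 24.4, 23.7 and 25.7 CPM against 26.0, 30.4 and 26.2 CPM (difference 0.62), Rfc2 at 20.3, 20.4 and 27.2 CPM against 21.2, 22 and 24.2 CPM (difference 0.65), and Rfc3 at 3.19, 4.59 and 7.63 CPM against 6.19, 4.11 and 6.87 CPM (difference 1.87). Rfc5 had 9.56, 8.29 and 11.3 CPM against 9.18, 9.30 and 8.11 CPM (difference 1.11). Orc3 had 13.8, 16.9 and 12.2 CPM against 21.4, 21.1 and 14.6 CPM, and its difference of 0.66 joined a 2-week log2 fold change of -0.41 with the small rise at 3 weeks.

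Genes outside the set were read from 5 lists of neighbouring functions. Their counts at 3 weeks stand beside 38.9% of all genes higher and 33.1% lower. Of 30 other fork and origin genes, 22 rose and 2 fell at 3 weeks (median log2 fold change 1.27), with Atad5, which unloads Pcna (log2 fold change 3.86), Topbp1, an initiation and checkpoint scaffold (2.03), and Chtf18, of an alternative clamp loader (5.51), as those of smallest p. Mcmbp, an MCM binding protein, fell by 0.31 and Pole4, a histone-fold subunit of the leading strand polymerase, fell by 0.63. Of 16 regulators of the G1 to S transition 11 rose and 1 fell (median 1.06). Ccna2 had 36.7, 47.7 and 44.7 CPM in NICD1/Akt livers against 1.04, 0.609 and 0.417 CPM in controls (log2 fold change 6.08), Ccnd1, cyclin D1, rose by 3.37 and E2f1 by 2.60. Myc was the one that fell (23.7, 29.4 and 15.5 CPM against 214, 37.7 and 188 CPM), with control library 11 far below libraries 10 and 12. All 12 mitosis markers rose (median 6.26), among them Mki67, with 93.8, 121 and 108 CPM against 2.16, 0.696 and 1.58 CPM, Plk1 and Cdc20. Plk1, Cdc20, Bub1, Birc5 and Ccnb1 of this list were under the filter level of 0.648 CPM in every 3-week control. So were Atad5 and Chtf18 of the fork and origin list. A rise was thus needed for these genes to be tested, which bears on the counts and medians of both lists. Of 11 damage and checkpoint genes 7 rose, with Chek2 (3.50), Rad9a (2.00) and Trp53 (0.91) first by p, and Atrip, Rad17 and Cdkn1a fell.

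Other nucleotide synthesis genes did not share the direction of the set. Of 32 such genes 13 rose and 14 fell at 3 weeks, with a median log2 fold change of -0.08, beside the 38.9% and 33.1% of all genes given above. The salvage kinases Dck, with 11.8, 16.4 and 14.5 CPM in NICD1/Akt livers against 4.49, 4.0 and 4.25 CPM in controls, and Uck2 rose by 1.86 and 1.91. Gmps, which makes GMP, had 41.6, 43.5 and 41.3 CPM against 79.8, 74.0 and 81.4 CPM (log2 fold change -0.78, SE 0.08, adjusted p = 6.44e-05). Shmt1 had 84.6, 59.8 and 99.1 CPM against 175, 170 and 177 CPM (log2 fold change -0.98), and Shmt2 (-0.94) and Mthfd1 (-0.93) fell too. Mthfd2, of the same list, rose, with 15.4 to 19.6 CPM against 1.74 to 7.75 CPM (log2 fold change 1.71, adjusted p = 0.0041). Also lower were Dctpp1, Tk2, Umps, Ppat, Paics, Adss, Adssl1, Prps1 and Nme1, with log2 fold changes from -1.36 (Adssl1) to -0.24 (Adss).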

How the data were processed

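For 12 stranded poly(A) libraries of mouse liver, the authors deposited integer read counts per gene, unnormalised, as 1 table a stage. The methods give STAR, mm10 and HTSeq, whereas the submitters' notes list the build GRCm39, Subread 2.0.6 and STAR 2.7, so the build is unsettled and genes have no coordinates here. Symbols were matched by ID to GENCODE names.

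Differential expression was tested on the deposited counts in edgeR 4.0.16 under R 4.3.3 (TMM scaling, filterByExpr, glmQLFit, glmQLFTest, Benjamini-Hochberg over all genes tested; threshold 0.05). Fits of 1 stage used its 6 libraries; CPM in the text and comparisons between stages used TMM over all 12. The genes, lists and alternatives were chosen with earlier results of these data known. Values by library are given for the genes of smallest p in each role, those that fell, Orc2, Tyms and those past the threshold between stages, and other lists by up to 3 genes of smallest p and those that fell.

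Total counts were 13136892 to 19594839 per library, and replicates differed by more than sampling noise (chi-square per gene 4.77 to 130). Tested on simulated data, the 3-week fit recovered 72 of 100 genes changed 2-fold and 97 of 100 changed 4-fold, the 2-week fit 14 and 67, and the difference 12 and 59. False calls numbered 18 of 12983 unchanged genes at 3 weeks, 7 of 12669 at 2 weeks and 6 of 13264 for the difference. Alternatives were DESeq2 1.42.0, the likelihood ratio test, limma-voom (limma 3.58.1), other scaling, filters and controls, and leaving out each library. Promoter windows are from RefSeq (GRCm38.p6). TAZ/Akt livers were not analysed here, and 1 gene under the naming rule is not reported here.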

Additional observations from a re-analysis of the deposited data

Results flagged for a closer look

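The effect of NICD1/Akt differed between 3 and 2 weeks for 24 of the 48 genes, by a test of the difference itself in the fit of all 12 libraries (edgeR quasi-likelihood test, adjusted p under 0.05). Of all genes, 15.0% had a higher and 15.8% a lower effect at 3 weeks. On the log2 scale, the effect at 3 weeks minus that at 2 weeks was 3.20 for Mcm2, 1.85 for Mcm3, 2.20 for Mcm4, 3.42 for Mcm5 and 4.0 for Mcm6. It was 2.89 for Gins2, 0.66 for Orc3, 2.7 for Cdt1 and 3.22 for Gmnn. In the clamp loader it was 0.62 for Rfc1, 0.65 for Rfc2, 1.87 for Rfc3 and 1.11 for Rfc5. For polymerase and primase genes it was 1.69 for Pola1, 1.61 for Pola2, 1.42 for Prim2, 2.87 for Pold1 and 2.22 for Pole. The remaining values were 0.99 for Rpa1, 3.51 for Lig1, 1.54 for Rrm1, 1.02 for Tk1, 2.48 for Chaf1a and 2.76 for Chaf1b. All 24 moved the same way, and 20 passed again without the library labelled control 32. Of 19 alternatives, the call was lost in 13 for Prim2, 11 for Orc3, 9 for Gins2, 7 each for Gmnn and Rfc2, 2 each for Mcm3 and Pola1 and 1 for Rfc1, and the other 16 genes kept it in each. Within controls, 17 of the 48 genes were lower and 2 higher at 3 weeks than at 2 weeks (20.4% and 17.4% of all genes). Within NICD1/Akt livers, 7 were higher and 1 lower (11.1% and 17.4% of all genes). Stage, sex-linked RNA and the controls of each stage cannot be told apart here.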

How the results depend on the processing

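At 3 weeks, 34 of the 45 calls were kept in every alternative run and 11 were lost in at least 1. The count of genes past the threshold ran from 34 (all 6 controls) to 48 (library size scaling), and from 43 to 45 when each library was left out. Library size scaling put the median log2 fold change over all genes at 0.77, against 0.06 with TMM, and the share of all calls that were higher at 87.6%, against 54.1%. Signs turned for Orc4 with library size scaling (0.35), for Pold2 against all 6 controls (-0.08) and, against control libraries 30 and 31, for Mcm10 (1.49), Gins1 (-0.03), Orc3 (-0.26), Orc4 (0.02), Pold2 (-0.43), Rpa1 (-0.11) and Tk1 (-0.52); the cause was not tested. At 2 weeks the 6 genes at an unadjusted p under 0.05 numbered 16 when all 12 libraries were fitted together, 21 with all 6 controls, and 1 to 14 when a library was left out. The 24 differences between stages became 17 to 40, with 40 without NICD1/Akt library 35. The 8 genes that changed within NICD1/Akt livers became 13 with DESeq2 and 18 with limma-voom, and 0 to 34 when a library was left out, 34 without library 35. The 19 that changed within controls became 10 with limma-voom and 13 to 30 when a library was left out. Most of these alternative counts were made without a share over all genes, so they do not show whether all genes shifted likewise. No paired analysis was possible because the groups share no replicate numbers. With 3 libraries a group, a 2-fold change was often missed at 2 weeks on simulated counts, so a gene without a call there is not shown to be unchanged.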
